A study of Mus musculus with 3 samples.

Results

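The cells described here are islet cells that carried transcripts of decorin (Dcn), a small collagen-binding proteoglycan, together with fibrillar collagens, and their working label is islet fibroblasts. A cell was chosen where Dcn was above 0 and at least 2 of Col1a1, Col1a2, Col3a1 and Pdgfra were above 0, while Ins1 plus Ins2 stayed under 3000 CP10K and Gcg, Sst and Ppy each stayed under 200 CP10K. CP10K is the number of UMIs of a gene per 10000 UMIs of the cell, and a UMI (unique molecular identifier) marks 1 captured RNA molecule. The rule found 114 of the 12308 cells that passed the quality filters. Library 1 (replicate 1) held 32 of them among 859 cells, and the joint table, which holds replicates 2 and 3, held 82 among 11449. The mice, 6 in all, carried Ngn3-CreERT:R26-CAG-TdTomato and were taken 10 days post-tamoxifen, and replicates 2 and 3 each pooled 2 mice. Islets were freed with collagenase, enriched on a density gradient and dissociated, and about 10000 cells were loaded per channel for 10x Genomics 3-prime sequencing. All 3 samples share the Cre allele, the reporter and tamoxifen, and none is a control. Ngn3 is Neurog3, a transcription factor of endocrine progenitors, so the lineage mark follows an endocrine driver.

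Fibroblasts build the interstitial matrix of an organ: they secrete procollagens that are trimmed and cross-linked outside the cell, and coat the fibres with small proteoglycans. In the pancreas such cells lie around vessels, ducts and islets. The outer face of the pancreas is covered by mesothelium, a sheet of cells that carries mesothelin, uroplakins, keratins and the transcription factor Wt1 and that also deposits matrix, so matrix genes by themselves do not separate the cells of a sheet from those of the interstitium.

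The chosen cells differed between the tables in depth and in insulin RNA, whose source was not tested, before any fibroblast gene was compared. The chosen cells had a median of 25720 UMIs in library 1 (5975 to 85013) and of 2818.5 in the joint table (1036 to 23751). For all cell types together the median depths lay closer, at 28850 UMIs (library 1) against 15471 (joint table). Insulin transcripts, which the chosen cells should lack, had a median of 36.5 CP10K in those of library 1 and of 901 CP10K in those of the joint table. Inside the joint table, depth and insulin also differed between kinds of chosen cell, as given below. The 3 barcode blocks of the joint table held 38, 23 and 21 of its 82 cells. No label ties a block to a replicate, so blocks show whether a value recurs and are not replicates, and every test has n = 2 libraries. Library 1 shared 5, 1 and 0 barcodes with the blocks and the blocks shared 6, 4 and 4 with each other, with 0 shared barcodes among the chosen cells. The chosen cells were 3.73% of library 1 (exact 95% interval 2.56% to 5.22%) and 0.716% of the joint table (0.570% to 0.888%). In the blocks the shares were 0.730%, 0.882% and 0.577%, so library 1 was highest. Intervals cover counting error only, and a share after dissociation cannot tell how many such cells the islet holds.

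The data of library 1 went against the label. There, 29 of the 32 chosen cells also had UMIs of at least 2 of 6 mesothelial genes (Msln, Upk3b, Upk1b, Lrrn4, Nkain4 and Wt1), a share of 90.6% (exact 95% interval 75.0% to 98.0%). Of the 82 joint cells 9 did so, a share of 11.0% (5.14% to 19.8%), with 2, 3 and 4 such cells in blocks 1, 2 and 3. All 6 genes were present together in 15 chosen cells of library 1 and 1 joint cell, whereas 67 of the 82 joint cells had none of them. In library 1, 8 cells passed with exactly 2 of the genes, and 12 of the 29 had no Msln UMI. With every cell thinned to 2000 UMIs, the shares were 53.1% of 32 cells in library 1 (34.7% to 70.9%) and 4.84% of 62 cells in the joint table (1.01% to 13.5%), 20 shallower joint cells being left out. Wt1, a zinc finger transcription factor, was seen in 31 of 32 chosen cells of library 1 and in 0 of 27 endothelial cells there. In the joint table it was seen in 13 of 82 chosen cells and in 0 of 713 endothelial cells (3 over the number of cells, the limit used here for a count of 0, is 0.421% of cells with a UMI). Median depth was 8746 UMIs in the endothelial cells of library 1 and 2877 in those of the joint table. The chosen cells are therefore called Dcn- and collagen-positive cells below, and are described as cells with mesothelial genes (38 cells) and cells without (76 cells). Among cells that failed the rule, 0 in library 1 and 1 in the joint table passed the mesothelial set and no other marker set. Cells over the hormone limits were not counted there.

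**Figure D1:**
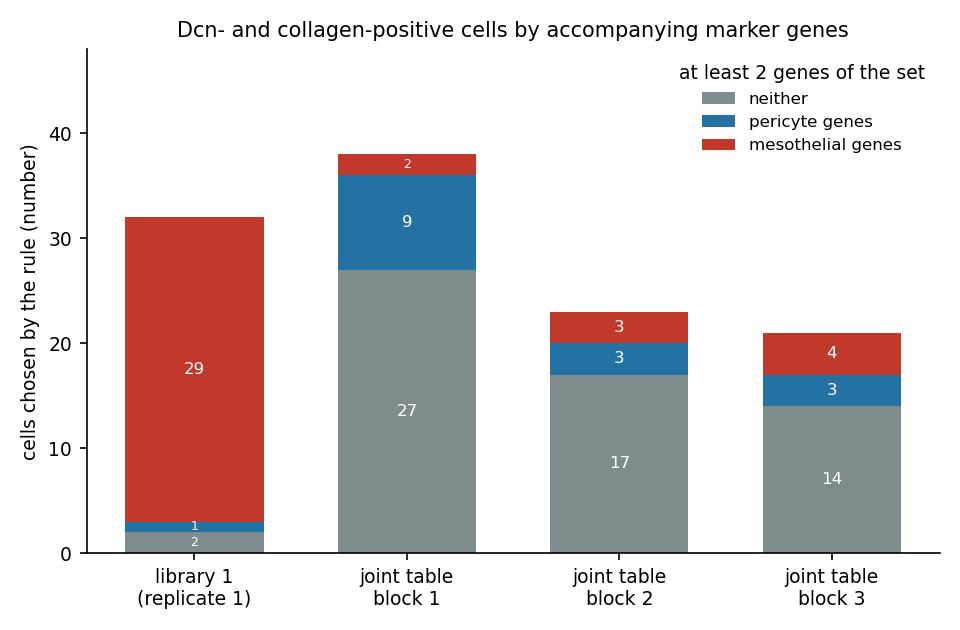
Number of Dcn- and collagen-positive cells (vertical axis), stacked for library 1 and for each of the 3 blocks by which accompanying marker set had at least 2 genes. Library 1 holds 29 cells with mesothelial genes of 32, whereas blocks 1, 2 and 3 hold 2 of 38, 3 of 23 and 4 of 21.

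The composition differed, so the share of cells without mesothelial genes was taken alone. It was 0.349% of the kept cells of library 1 (3 cells, 0.0721% to 1.02%) and 0.638% of those of the joint table (73 cells, 0.5001% to 0.801%), and these intervals overlap. Cells with mesothelial genes were 3.38% and 0.0786% of the kept cells. With genes counted at full depth, the higher share of chosen cells in library 1 lay in the cells with mesothelial genes. That division depends on depth: after thinning, 17 of 32 chosen cells in library 1 and 3 of 62 in the joint table passed the set. Shares of kept cells without mesothelial genes were not compared at equal depth. Insulin and depth moved with this split inside the joint table: cells with mesothelial genes had a median of 14447 UMIs and 188 CP10K of insulin, and cells without had 2697 UMIs and 969 CP10K. In library 1 the median depth was 25836 and 25604 UMIs. The part of depth and of RNA from other cells in the differences below was not tested.

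Endothelial, macrophage, B cell, T or NK cell and Schwann cell marker sets were close to absent in the chosen cells. Of the 32 cells of library 1, 0 passed the endothelial set and 2 the macrophage set. Of the 82 joint cells 1 passed the endothelial set and 0 the macrophage set, and 0 cells of either table passed the B cell, T or NK cell or Schwann sets. The pericyte set was the exception outside the mesothelial one, with 9 cells of library 1, of which 8 also had mesothelial genes, and 16 of the joint table, of which 1 did. Rgs5, a regulator of G protein signalling that marks pericytes, was at 0 in all 32 library 1 cells, where the limit of 3 over the number of cells is 9.38% of cells with a UMI. It was present in 16 of 82 joint cells at a mean of 4.097 CP10K, against 80.8 CP10K in pericytes of the same table, and 1 cell held 52.3% of those UMIs.

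**Figure D2:**
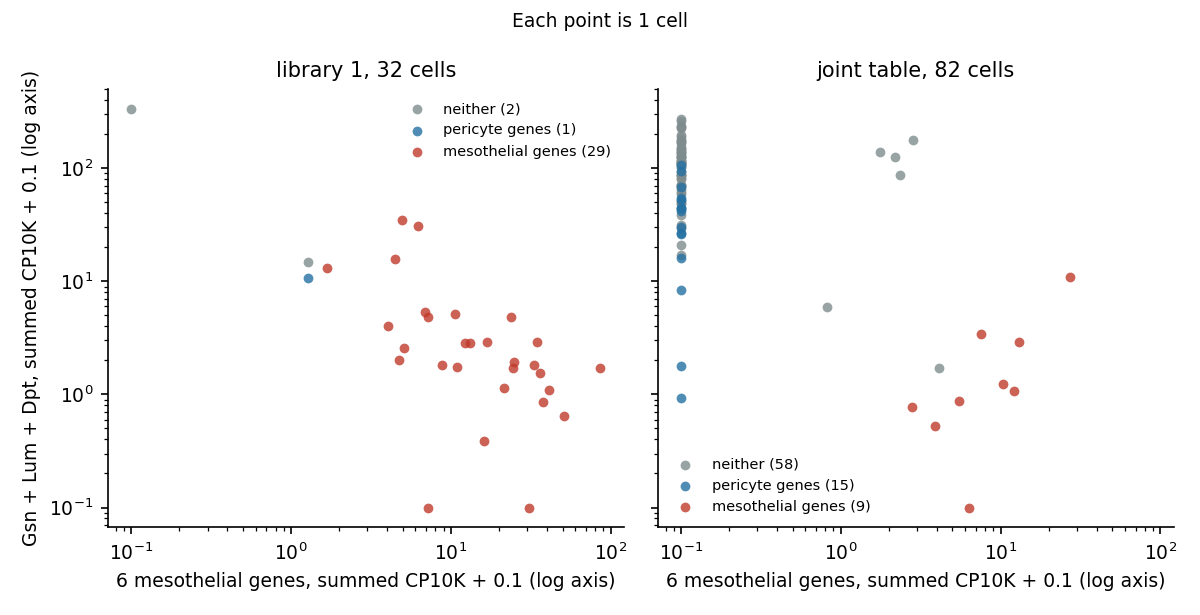
Each point is 1 chosen cell, placed by the summed CP10K of the 6 mesothelial genes (horizontal log axis, 0.1 added) and of Gsn, Lum and Dpt (vertical log axis, 0.1 added), for library 1 and the joint table. Cells with mesothelial genes (red) lie mostly below 10 CP10K on the vertical axis in both tables, and 67 joint cells sit at 0 mesothelial UMIs.

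The genes of the rule are given as a description, since they chose the cells. Dcn had means of 77.4, 97.0, 81.4 and 97.2 CP10K in library 1 and blocks 1, 2 and 3, with SDs over cells of 30.5, 51.7, 49.2 and 46.0. Col3a1, the chain of type III collagen, had means of 50.5, 46.0, 66.2 and 67.1 CP10K in the same order. Col1a2, a chain of type I collagen, had 46.1, 37.8, 41.5 and 45.9 CP10K, and Col1a1, its partner chain, had 31.7, 23.0, 26.2 and 34.6. The means of these 4 genes lay within the spread between cells of every unit. Pdgfra, the receptor for platelet-derived growth factor that marks many fibroblasts, had 3.40, 2.46, 2.49 and 1.74 CP10K and was present in 27 of 32 cells of library 1 and 36 of 82 joint cells. Few chosen cells lay near the threshold in Dcn and its accompanying genes. The insulin limit mattered more: at 1000 CP10K all 32 cells of library 1 but 49 of the 82 joint cells remained. In library 1, 0 cells had exactly 2 of the 4 accompanying genes and the lowest Dcn count was 37 UMIs. Of the joint cells 4 had exactly 2 and the lowest Dcn count was 1 UMI, with a median of 26. Just outside the rule, 0 and 4 cells had Dcn with 1 accompanying gene, 8 and 75 had 2 or more accompanying genes without Dcn, and 1 and 5 were left out by the hormone limits.

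Dcn was present in both kinds of cell, at 77.4 CP10K with mesothelial genes and 77.1 without in library 1, and at 57.1 and 97.1 in the joint table. Pdgfra had 5.72 CP10K in joint cells with mesothelial genes (9 of 9 cells) and 1.86 in those without (27 of 73 cells, at lower depth), and 3.42 and 3.13 in library 1. The means of both genes lay apart in the joint table and close together in library 1, and no difference between them was tested because 3 and 9 cells are too few for a library column.

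The DNA just before the start of 3 genes is shown for the reader to set beside the levels that follow. Col3a1 was abundant in both kinds of cell, Saa3 was abundant in cells with mesothelial genes, and among the chosen cells Gdf10 was seen only in those without them. Each line gives the 250 bases before the start in RefSeq on GRCm38.p6, 5′ to 3′ on the strand of the gene. Capitals mark TATAAA and TATATA in the first and second and CCGCCC, the reverse complement of GGGCGG, in the third. Col3a1 lies at chr1:45311288-45311537 on the plus strand, Saa3 at chr7:46715677-46715926 on the minus strand and Gdf10 at chr14:33923337-33923586 on the plus strand. The GENCODE annotation starts Saa3 inside the stretch printed.
Col3a1: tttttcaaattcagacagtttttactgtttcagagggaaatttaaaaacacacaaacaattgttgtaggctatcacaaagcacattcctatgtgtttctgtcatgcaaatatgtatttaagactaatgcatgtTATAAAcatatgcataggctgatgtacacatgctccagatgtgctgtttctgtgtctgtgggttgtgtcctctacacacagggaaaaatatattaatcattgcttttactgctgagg
Saa3: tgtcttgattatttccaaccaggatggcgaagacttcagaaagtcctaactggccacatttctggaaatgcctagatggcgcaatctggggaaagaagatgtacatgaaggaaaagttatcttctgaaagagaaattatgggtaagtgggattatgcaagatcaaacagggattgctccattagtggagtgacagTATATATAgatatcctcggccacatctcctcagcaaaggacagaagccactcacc
Gdf10: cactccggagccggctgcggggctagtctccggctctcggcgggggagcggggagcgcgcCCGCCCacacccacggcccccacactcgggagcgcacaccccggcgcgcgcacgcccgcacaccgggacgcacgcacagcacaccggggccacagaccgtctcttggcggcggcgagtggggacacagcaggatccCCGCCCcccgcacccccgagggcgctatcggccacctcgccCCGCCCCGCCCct
The motifs searched, on both strands, were the CCAAT box, the GC box GGGCGG, and the TATA-like words TATAAA and TATATA. Col3a1 had TATAAA with its first base at position -117 from the start. Saa3 had TATATA at -55 and -53, which overlap. Gdf10 had CCGCCC at -190, -54, -13 and -8, and the last 2 overlap. Among 32851 promoter stretches of the same length, 33.8% held CCAAT, 32.7% GGGCGG, 12.4% TATAAA and 5.25% TATATA. A match describes letters and shows no binding. The sequence tables used here gave no entry for Dcn, Col1a1, Lum, Msln, Sparcl1, Ccl11, Cxcl5 or Hp.

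Cells with mesothelial genes carried acute-phase, chemokine and barrier genes at a higher mean level than joint cells without them. Saa3, an acute-phase apolipoprotein, had a mean of 189 CP10K in the 29 such cells of library 1 (26 with a UMI) and of 227, 139 and 187 CP10K in the 2, 3 and 4 such cells of blocks 1, 2 and 3, present in all 9. In cells without mesothelial genes Saa3 was present in 1 of 73 joint cells, at a mean of 0.775 CP10K, and in 2 of 3 cells of library 1, where 1 cell held 96.8% of the UMIs. Macrophages, a second source of the transcript, had 5.36 and 1.05 CP10K. Hp (haptoglobin, which binds free haemoglobin) had 10.9 CP10K in the cells of library 1 with mesothelial genes and 9.53, 11.7 and 22.1 in those of the blocks, against 0.0775 CP10K in the other 73 joint cells. Its library 1 mean was uneven over cells: those with and without Msln had medians of 1.65 and 1.44 CP10K and highest values of 67.5 and 48.8. Cxcl5, a chemokine that attracts neutrophils, had 10.1 CP10K in library 1 and 3.14, 9.76 and 10.7 in the blocks, against 0.0691 in the other joint cells. Dmkn (dermokine, a secreted protein of epithelial surfaces) had 17.2 CP10K in library 1 and 18.3, 7.37 and 3.18 in the blocks, against 0.111. Ptgis, which makes prostacyclin, had 10.4 CP10K in library 1 and 15.5, 9.78 and 18.7 in the blocks, against 1.48. For these 5 genes every block was higher in its cells with mesothelial genes than in its other cells. In library 1 the kinds lay closer for Ptgis. Its log2 difference against pericytes was 7.70 in cells with mesothelial genes and 6.46 in the 3 cells without. The same values were 7.76 and 3.88 for Hp and 8.42 and 1.55 for Dmkn.

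Some genes that set library 1 apart did so less evenly. Slpi, a secreted protease inhibitor, had 65.5 CP10K in the cells of library 1 with mesothelial genes and 0.933, 4.24 and 9.52 in those of blocks 1, 2 and 3. C3, the central complement component, had 99.7 CP10K in those of library 1 and 88.7, 17.8 and 40.4 in those of the blocks. It was not particular to them, since joint cells without mesothelial genes had 16.7 CP10K, with C3 in 34 of 73. Timp1, an inhibitor of matrix metalloproteinases, went opposite ways in the tables, with 34.8 and 3.19 CP10K in joint cells with and without mesothelial genes and 9.41 and 40.3 in library 1. Of the 3 cells without mesothelial genes in library 1, 1 cell held 99.2% of the Timp1 UMIs.

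**Figure D3:**
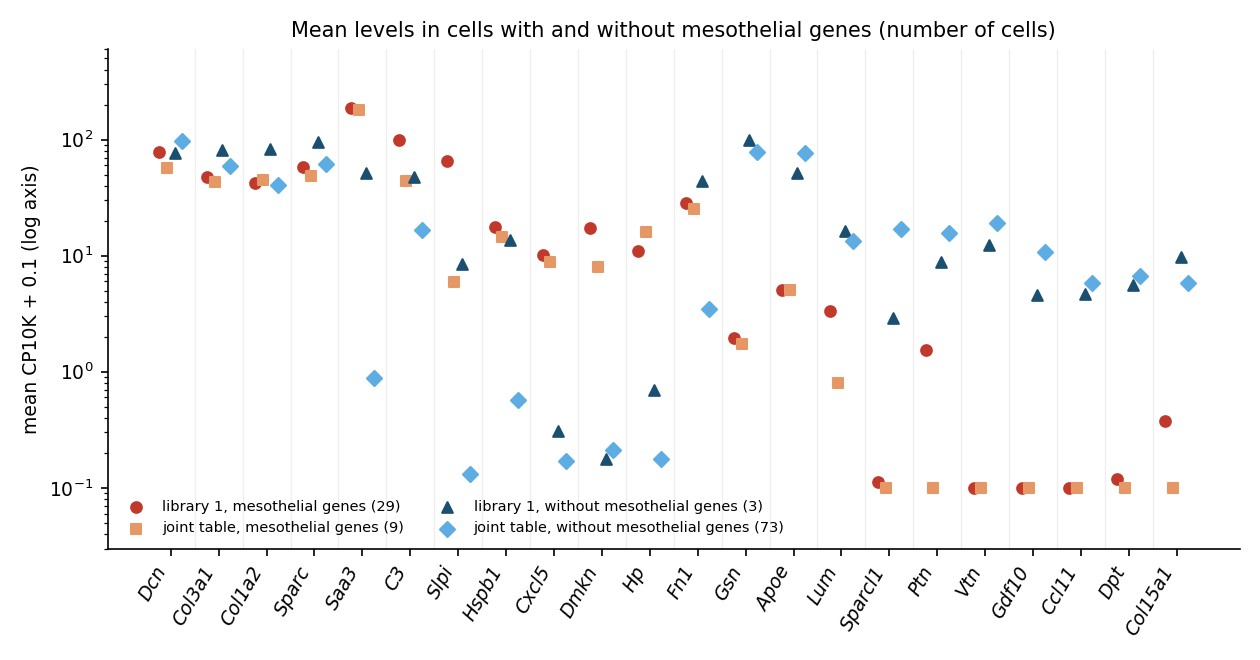
Mean CP10K plus 0.1 (vertical log axis) of 22 genes in cells with mesothelial genes (circles and squares) and without (triangles and diamonds) in library 1 and the joint table. Saa3 is at 189 and 180 CP10K with mesothelial genes and Gsn at 1.87 and 1.62, against 98.4 and 78.7 without.

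Inside library 1 the 29 cells with mesothelial genes were themselves of unequal kind. This split was chosen after its values were seen and is a description. Msln, a surface glycoprotein of mesothelium, was present in 17 of them and absent in 12, at median depths of 27893 and 24240 UMIs. Krt19, a keratin, had means of 17.0 and 0.204 CP10K in the cells with and without Msln, Krt8 had 7.43 and 0.0968, and Upk3b had 4.30 and 0.0511. Wt1 (4.198 and 4.14 CP10K) and Nkain4 (5.95 and 2.01 CP10K) were present in all 29, but both belong to the set that chose these cells. Of the 12 cells without Msln, 0 had Upk1b, 3 had Upk3b and 3 had Lrrn4, so most passed the set on Wt1 and Nkain4. Several matrix genes and Pdgfra had the opposite order: Fn1 (fibronectin) had 12.1 and 51.6 CP10K, Col1a1 9.45 and 52.7, Col3a1 25.7 and 78.0, Bgn (biglycan, a small proteoglycan) 3.59 and 18.4, and Pdgfra 1.73 and 5.82. Lum (lumican, which spaces collagen fibrils) had 0.0920 and 7.70 CP10K. Other matrix genes did not follow the split: Dcn had 77.1 and 77.9 CP10K, Timp1 9.001 and 9.99, Thbs1 (thrombospondin 1) 4.78 and 3.98 and Prelp 0.295 and 0.299, and Efemp1, of the fibulin family, had 2.06 and 0.494. In the joint table Msln was present in 2 of the 9 cells and Krt19 in 2, at a lower median depth of 14447 UMIs. In these 2 markers the 9 were nearer to the library 1 cells without Msln, but Msln itself defined that split. At the lower depth these 2 markers do not place the 9. Lum went the other way, since it was nearly absent from the 9 as from the cells with Msln.

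Several genes were higher on average in cells without mesothelial genes, and some of them were at 0 in the other kind. These genes were named after their values were seen. Gsn (gelsolin, an actin-severing protein also secreted to plasma) had 81.4, 66.9 and 86.9 CP10K in the 36, 20 and 17 such cells of blocks 1, 2 and 3, and 2.73, 0.744 and 1.72 in the cells with mesothelial genes. In library 1 it had 1.87 CP10K in the 29 and 98.4 in the 3, where 1 cell held 96.2% of the UMIs. Mean Gsn was therefore higher in cells without mesothelial genes in every block, and it rested on 1 cell in library 1. Single cells overlapped in block 1. There the sum of Gsn, Lum and Dpt went down to 0.829 CP10K without mesothelial genes and up to 10.8 CP10K with them. Sparcl1, a matricellular protein related to Sparc, had 13.7, 18.8 and 21.1 CP10K in the joint cells without mesothelial genes and was at 0 in the 9 with them. Ebf1, a transcription factor of mesenchyme and B cells, had 6.82, 12.1 and 9.33 CP10K and was at 0 in all 38 cells with mesothelial genes. Gdf10, a ligand of the TGF-beta superfamily, had 10.3, 9.32 and 12.98 CP10K in blocks 1, 2 and 3 and was present in 54 of 73 cells, and it was at 0 in the same 38 cells. In endothelial cells of the joint table Gdf10 was present in 22 of 713. Dpt (dermatopontin, which binds decorin and aids collagen assembly) had 6.996, 5.68 and 6.93 CP10K in the blocks and was at 0 in the 9 joint cells with mesothelial genes, and it was present in 2 of 29 such cells of library 1. Lum had 12.2, 15.6 and 12.8 CP10K in the blocks, and 1 of the 9 joint cells with mesothelial genes had a UMI of it.

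Among chemokines the kinds differed by gene, with Cxcl5 higher and Ccl11 and Ccl19 lower on average in cells with mesothelial genes. Ccl11, a chemokine for eosinophils, had 5.80, 4.31 and 7.15 CP10K in the cells of the blocks without mesothelial genes and was at 0 in all 38 cells with them. Ccl19, which guides lymphocytes and dendritic cells, is listed in the joint table only and had 7.82, 8.64 and 10.9 CP10K, in 43 of 73 cells. Ptn (pleiotrophin, a heparin-binding growth factor) had 16.8, 16.2 and 12.0 CP10K in the blocks, but it was also present in 13 of 29 library 1 cells with mesothelial genes, at 1.43 CP10K. Apoe, a lipid carrier that is also abundant in macrophages, had 74.8, 61.3 and 101 CP10K against 14.5, 0.604 and 3.35 in the cells of each block with mesothelial genes. Mgp (matrix Gla protein, an inhibitor of calcification) had 144, 174 and 155 CP10K against 47.2, 3.17 and 7.04. Cxcl13, a B cell chemokine, had a joint mean of 8.15 CP10K in 6 of 82 cells, and 1 cell held 92.5% of its UMIs.

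Other genes were present in some joint cells and not in others, which at this depth includes genes missed by counting. Vtn (vitronectin, an adhesion protein that is also made by pericytes) was present in 36 of 73 cells without mesothelial genes, at 15.6, 24.7 and 19.4 CP10K in the blocks, and in 88 of 162 pericytes at a mean of 5.09 CP10K. All 16 cells with Rgs5 were among the 36 with Vtn. Saa3 and Gdf10, in 10 and 54 cells, occurred together in 0 of 82. Of the marker sets for kinds of fibroblast, at least 2 genes of an adventitial set (Pi16, Dpp4, Sema3c, Cd55 and Anxa3) were seen in 78.1% of library 1 cells and 7.32% of joint cells. After thinning these shares were 21.9% and 4.84%. At least 2 genes of a parenchymal set (Col15a1, Penk, Hmcn2, Npnt and Smoc2) were seen in 21.9% and 31.7%, with 4 of the 5 genes listed in library 1, and after thinning in 0 of 32 and 22.6% of 62. Pi16, the usual leading gene of the adventitial set, was in 1 of 32 and 6 of 82 cells, so that set was carried in library 1 by its other genes. Among them, Dpp4 (0.866 and 0.0438 CP10K) and Cd55 (5.59 and 2.80) were higher with Msln than without in the 29 cells. All 7 library 1 cells with the parenchymal set also passed the mesothelial set.

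The chosen cells were compared with the other stromal and blood-derived classes of the islet, to see which genes went with Dcn and collagen beyond those that chose the cells. The classes held 12 and 162 pericytes or smooth muscle cells, 27 and 713 endothelial cells, and 37 and 262 macrophages in library 1 and the joint table. The fit used limma on log2 of the mean CP10K plus 0.05 per class and table, 10211 genes and a Benjamini-Hochberg threshold of 0.05, leaving out genes that the rule or the class definitions used. Since the cells were picked by their own RNA, genes that go along with collagen are tied to the choice, and the counts describe the classes. Against pericytes 483 genes were higher, 4.73% of those tested, and 343 were lower, 3.36%. Against endothelial cells 620 genes were higher (6.07%) and 586 lower (5.74%), and against macrophages 792 were higher (7.76%) and 772 lower (7.56%). All called genes had 1 direction in both tables, which the threshold largely forced, since a gene whose tables disagreed could hardly pass it. Of the 826 genes called against pericytes, 777 kept that direction in every block as well. Against endothelial cells 1175 of 1206 did so, and against macrophages 1493 of 1564. The blocks are parts of the joint table, which gave the calls. The comparisons share the chosen cells, so a gene called in several is not repeated evidence. Because library 1 was made up mostly of cells with mesothelial genes and the joint table mostly of cells without, both were also taken alone: 476 of the 483 genes higher than in pericytes kept the sign in the 73 joint cells without and in the 29 library 1 cells with mesothelial genes, and 415 were past 1 on the log2 scale in both. For endothelial cells these counts were 615 and 540 of 620, and for macrophages 770 and 692 of 792. These cells make up most of the columns that gave the calls, so the sign was largely fixed. Over all 4 combinations of table and kind, the 9 and 3 cells included, 446 of 483, 555 of 620 and 634 of 792 genes kept the sign.

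**Figure D4:**
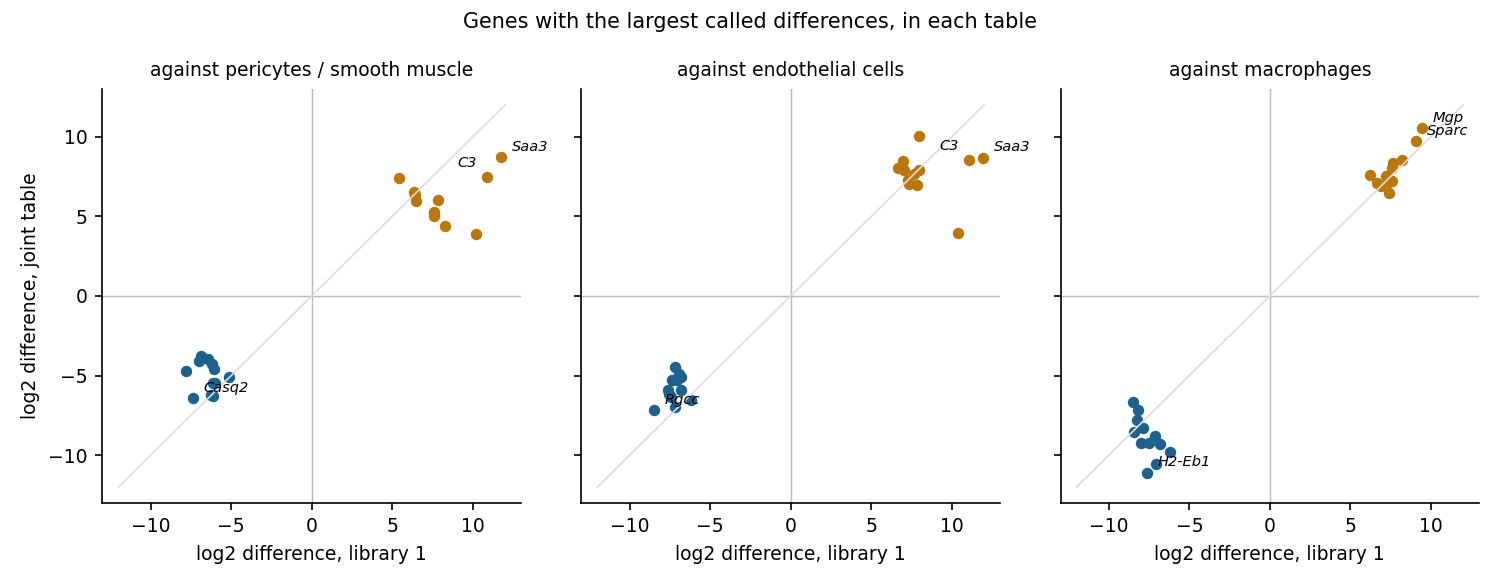
Log2 difference of chosen cells minus the other class in library 1 (horizontal) and in the joint table (vertical) for the 12 genes with the largest called difference in each direction, 1 panel per class. Genes were taken only with 1 direction in both tables and every block and at least 0.5 CP10K in the higher class of both tables. The shared sign was therefore set by the selection. The diagonal marks equal differences, and Saa3 (11.76 and 8.72 against pericytes) lies on the library 1 side of it.

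Against pericytes, which share contractile and vessel-wall genes with fibroblasts, the chosen cells had more of most further fibroblast genes and less of most contractile ones. Of 30 further fibroblast genes, 25 were higher, 0 lower and 5 not called, with a median log2 difference of 4.09 beside 0.10 over all genes, or 3.06 with genes absent from pericytes set at their lower bound. Loxl1, which cross-links elastin and collagen, had 4.12 CP10K in library 1 and 4.62, 3.31 and 4.96 in the blocks and was at 0 in pericytes of both tables, which makes it at least 8.58-fold and 55.05-fold higher (adjusted p = 0.00048, limma). Lum had 4.45, 11.8, 13.6 and 10.4 CP10K against 0 and 0.145 in the pericytes of the tables, a log2 difference of 6.23 ± 0.68 (SE, adjusted p = 0.000922, limma). Both genes were higher in every block than in pericytes, which the selection of named genes required. With DESeq2 the calls against pericytes were lost for Loxl1, Lum and Igfbp6, and for Col5a1, Adamts2, Fbln1, Wnt5a and Tagln below, with the same direction. With a pseudocount of 0.01 those for Col6a1, Col5a1, Kitl, Ednra, Nkx2-3 and Tagln were lost, Timp3 lost its call with edgeR with TMM and Slpi with a pseudocount of 0.5. Igfbp6, which binds insulin-like growth factor II, had 11.5 CP10K in library 1 and 3.86, 2.33 and 2.42 in the blocks and was at 0 in pericytes, at least 23.9-fold and 38.8-fold higher. Gsn did not pass the threshold against pericytes (log2 difference 2.01 ± 0.60, adjusted p = 0.0745, limma), at 0.50 by library 1 and 3.51 by the joint table, although edgeR with TMM called it, and it was lower than in pericytes in the 29 library 1 cells with mesothelial genes alone (-2.001).

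The matrix lists gave the same picture by role. The counts below stand beside 4.73% higher and 3.36% lower over all genes tested. Of 18 collagens outside the rule 9 were higher than in pericytes and 0 lower (median log2 difference 2.40). Col6a1, of the beaded type VI filaments, had 11.2 and 10.7 CP10K in the tables against 2.43 and 1.57, a log2 difference of 2.47 ± 0.43, and Col5a1, which nucleates type I fibrils, had 3.06 and 2.48 against 0.322 and 0.0788. Of 20 collagen-processing genes 6 were higher and 1 lower, with Adamts2, the procollagen N-proteinase, at 2.11 in both tables against 0.184 and 0.0384. Of 39 proteoglycan and glycoprotein genes 20 were higher and 1 lower. Fbln1 (fibulin 1) had 1.48 and 4.53 CP10K against 0.0921 and 0, and Fn1 had 29.9 and 5.74 against 0.322 and 0.116. Of 23 genes for matrix breakdown and its inhibitors 11 were higher and 1 was lower. Mmp2, a gelatinase, had 1.68 and 2.63 CP10K against 0.0461 and 0.0427. The lower gene was Timp3, an inhibitor bound to matrix, at 7.12 and 6.61 CP10K against 16.1 and 17.2, a log2 difference of -1.26 ± 0.24 (adjusted p = 0.0103, limma).

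Secreted signals and their inhibitors were higher more often than lower. Of 35 growth factor genes 15 were higher than in pericytes and 3 lower. Igf1 (insulin-like growth factor 1) had 1.87 and 2.999 CP10K and was at 0 in pericytes, at least 3.901-fold and 38.04-fold higher. Gas6, a ligand of TAM receptors, had 5.13 and 4.66 CP10K against 0.447 and 0.0175, and Wnt5a, a noncanonical Wnt ligand, had 1.03 and 1.79 against 0 in both. Il33, an alarm cytokine held in the nucleus, had 2.21 and 0.506 CP10K against 0 and 0.0371. Pdgfa and Kitl were 2 of the 3 lower ones: Pdgfa, a ligand of Pdgfra, had 0.422 and 0.572 CP10K in the chosen cells and 4.82 and 4.22 in pericytes, a log2 difference of -3.06 ± 0.42 (adjusted p = 0.00209, limma). Of 15 antagonists and binding proteins 8 were higher and 0 lower, among them Igfbp4 at 11.4 and 14.8 CP10K against 0.313 and 0.549. Of 49 receptors 9 were higher and 6 lower, beside 4.73% and 3.36% of all genes tested. Ednrb, an endothelin receptor, was at 0 in all 114 chosen cells and at 3.77 and 3.78 CP10K in pericytes, at least 112-fold and 48.6-fold lower (adjusted p = 0.000178, limma), and Ednra, its relative, had 0.154 and 0.636 against 2.60 and 2.82. Egfr had 0.898 and 0.693 CP10K against 0 and 0.0804.

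Of 19 chemokine and inflammatory genes 13 were higher than in pericytes and 1 was lower. Cxcl12, which holds Cxcr4-positive cells in stroma, had 1.67 and 4.08 CP10K against 0.128 and 0.567, and Ccl2, a monocyte chemokine, had 7.90 and 1.96 against 0 and 0.0137. The lower one was Ackr3, a scavenging receptor of Cxcl12, at 0.0654 and 0.107 CP10K against 1.18 and 1.44. Of 13 complement genes 8 were higher and 0 lower. C3 had 94.8 CP10K in library 1 and 20.5, 14.9 and 23.3 in the blocks against 0 and 0.0666 in pericytes, a log2 difference of 9.16 ± 0.69 (adjusted p = 0.000245, limma), and it was 7.24 in joint cells without mesothelial genes alone. Saa3 was at 0 in pericytes of both tables and at least 367-fold and 259-fold higher in the chosen cells, but in joint cells without mesothelial genes it rested on 1 cell. Hp and Slpi were also among the 12 largest and likewise lay mostly in cells with mesothelial genes, with log2 differences of 8.36 and 6.94 in joint cells with mesothelial genes and of 1.43 and 0.77 in those without. Of 58 transcription factors 12 were higher and 5 lower, beside 4.73% and 3.36% of all genes tested. Aebp1, tied to collagen genes, had 5.88 and 8.18 CP10K against 0.139 and 0.252, and Gata6, a zinc finger factor of mesoderm and endoderm, had 2.93 and 1.15 against 0 and 0.0489. Mef2c, a factor of muscle and endothelium, was lower (0.213 and 1.05 against 5.79 and 7.27), as was Nkx2-3 (0.460 and 0.979 against 3.55 and 1.87).

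Retinoid and lipid genes were higher in 13 of 25 and lower in 0. Apoe had 9.35 and 69.3 against 0.293 and 1.001. Of 12 contractile and pericyte genes outside the class definition 11 were lower and 0 higher, with a median log2 difference of -4.37. Tagln (transgelin, an actin-binding protein of smooth muscle) had 0.266 and 2.99 CP10K against 25.4 and 18.6, and Higd1b, a mitochondrial protein abundant in pericytes, had 0 and 0.328 against 10.9 and 10.3. Casq2, a calcium-binding protein of the sarcoplasmic reticulum, had the largest lower difference at -6.90 ± 0.60 (0 and 0.0103 against 8.04 and 5.31, adjusted p = 0.000453, limma). Of 20 interferon and antigen presentation genes 10 were higher and 0 lower. Of 36 immediate early and stress genes, which dissociation can raise, 5 were higher, 1 was lower and 30 were not called. Over all genes tested 4.73% were higher and 3.36% lower.

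Against endothelial cells, which line the capillaries and share little matrix with fibroblasts, the fibroblast, collagen and proteoglycan lists had larger medians than against pericytes, whereas the retinoid and lipid list (2.29), the receptor list (0.80) and the interferon list (-0.52) did not. The wider adventitial and parenchymal lists went the other way. Of 13 adventitial genes 2 were higher and 7 lower (median log2 difference -2.04, and 1.24 against pericytes). Of 11 parenchymal genes 3 were higher and 1 was lower (median -0.84, and 2.08 against pericytes). Among all genes tested, 6.07% were higher than in endothelial cells and 5.74% lower. Of the 30 further fibroblast genes 27 were higher and 0 lower (median log2 difference 5.29, or 5.37 with bounds, beside 0.02 over all genes). Col6a1 was at 0 in endothelial cells of both tables and at least 108-fold and 869-fold higher in the chosen cells (adjusted p = 1.43e-05, limma). Gsn had a log2 difference of 9.005 ± 0.60, at 10.9 CP10K in library 1 and 77.2, 58.3 and 70.7 in the blocks against 0 and 0.0215. Serping1, the inhibitor of complement C1, had 11.8 CP10K in library 1 and 21.1, 16.8 and 22.3 in the blocks against 0.0497 and 0.0442 in endothelial cells, a log2 difference of 7.46 ± 0.39 (adjusted p = 1.43e-05, limma). Serping1 was far above endothelial cells in library 1 and in every block, where the shared direction was set by the selection of named genes. Of the complement genes 10 of 13, and of the chemokine genes 13 of 19, were higher. Vtn was higher by the fit (6.53 ± 0.85), but 1 of 32 cells carried it in library 1.

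Of the matrix lists, 12 of 18 collagens, 9 of 20 collagen-processing genes and 29 of 39 proteoglycans and glycoproteins were higher than in endothelial cells. The lower collagens were Col4a1 and Col13a1, a transmembrane collagen at 0 and 0.0308 CP10K against 4.17 and 3.39, a log2 difference of -5.76 ± 0.61. Of 35 growth factors 17 were higher and 3 lower. Kitl, the ligand of Kit, was among the lower ones at 0.120 and 0.193 CP10K against 2.77 and 2.61, and Igfbp3, which binds insulin-like growth factors, had 0.930 and 2.02 against 13.7 and 16.7. Gas6 (5.13 and 4.66 against 2.14 and 2.37, adjusted p = 0.292, limma) and Cxcl12 (1.67 and 4.08 against 0.704 and 1.18, adjusted p = 0.0683, limma) did not pass the threshold, though edgeR and DESeq2 called Cxcl12 higher. Of 49 receptors 12 were higher and 8 lower, beside 6.07% and 5.74% of all genes tested. Lrp1, an endocytic receptor for proteases and apolipoproteins, had 3.70 and 4.79 CP10K against 0 and 0.0159, and Ednrb was at least 118-fold and 64.3-fold lower. Lpl (lipoprotein lipase) had 3.64 and 11.8 CP10K against 0 and 0.0977, whereas Gpihbp1, which holds that enzyme on the capillary wall, was at 0 in the chosen cells and at 7.96 and 7.01 in endothelial cells, at least 237-fold and 90.01-fold lower. Gpihbp1 lost its call with DESeq2, with the same direction. Prrx1, a homeobox factor of limb and stromal mesenchyme, was at 0.458 and 3.2 CP10K against 0 and 0.00885, and Rgcc, a cell cycle regulator of endothelium, had the largest lower difference at -7.83 ± 0.66.

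Against macrophages, Mgp and Sparc, which binds collagen and calcium, were the largest higher differences. Sparc had 61.3 CP10K in library 1 and 56.6, 64.7 and 61.7 in the blocks, and 0.0445 and 0.00784 in macrophages, a log2 difference of 9.42 ± 0.24 (adjusted p = 2.22e-08, limma). It was present in all 114 chosen cells and lay at 57.8 and 48.4 CP10K in those with mesothelial genes. Of 18 collagens 14 were higher and 0 lower, of the 30 fibroblast genes 29 were higher (median log2 difference 5.24, or 5.17 with bounds, beside -0.01 over all genes), and of 58 transcription factors 29 were higher and 1 was lower. Nfib had 4.31 and 5.698 CP10K against 0 and 0.0210, and Nr2f2, a nuclear receptor of venous and stromal cells, had 0.561 and 3.60 against 0 and 0.00701. Serpinh1, the collagen chaperone of the endoplasmic reticulum, was at 9.80 and 8.62 CP10K and at 0 in macrophages, at least 85.2-fold and 262-fold higher. Of 49 receptors 20 were higher, among them Osmr, for oncostatin M, at 1.14 and 1.19 CP10K against 0 in both tables. Among all genes tested, 7.76% were higher than in macrophages and 7.56% lower.

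Inflammatory genes divided between the classes. Of 19 chemokine and inflammatory genes 7 were higher than in macrophages and 3 lower. Ccl8, a monocyte chemokine, had 0.0110 and 0 CP10K against 18.4 and 4.06, and Cxcl2, a neutrophil chemokine, had 0.115 and 0.0851 against 19.2 and 6.08. Ccl8 lost its call with DESeq2. C3 was higher by 6.33 ± 0.69 on the log2 scale (94.8 and 19.7 CP10K against 0.382 and 0.413). Saa3 was higher by 4.35 ± 0.71 (adjusted p = 0.00179, limma), but in joint cells without mesothelial genes the difference was -0.68. The call for Saa3 against macrophages therefore rested on cells with mesothelial genes. Fn1, which macrophages also make, did not pass the threshold (29.9 and 5.74 CP10K against 23.7 and 12.5, adjusted p = 0.602, limma). Apoe was lower than in macrophages at 9.35 and 69.3 CP10K against 191 and 220, and Tgfbi, a matrix protein induced by TGF-beta, was lower at 0.486 and 0.615 against 4.69 and 3.41. Of 36 immediate early and stress genes 2 were higher and 7 lower. Among 20 interferon and antigen presentation genes 1 was higher and 5 were lower. Over all genes tested 7.76% were higher and 7.56% lower, so the higher counts of these lists did not exceed the share over all genes. H2-Aa, of class II antigen presentation, was at 0.530 and 0.0333 CP10K against 66.1 and 105.

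**Figure D5:**
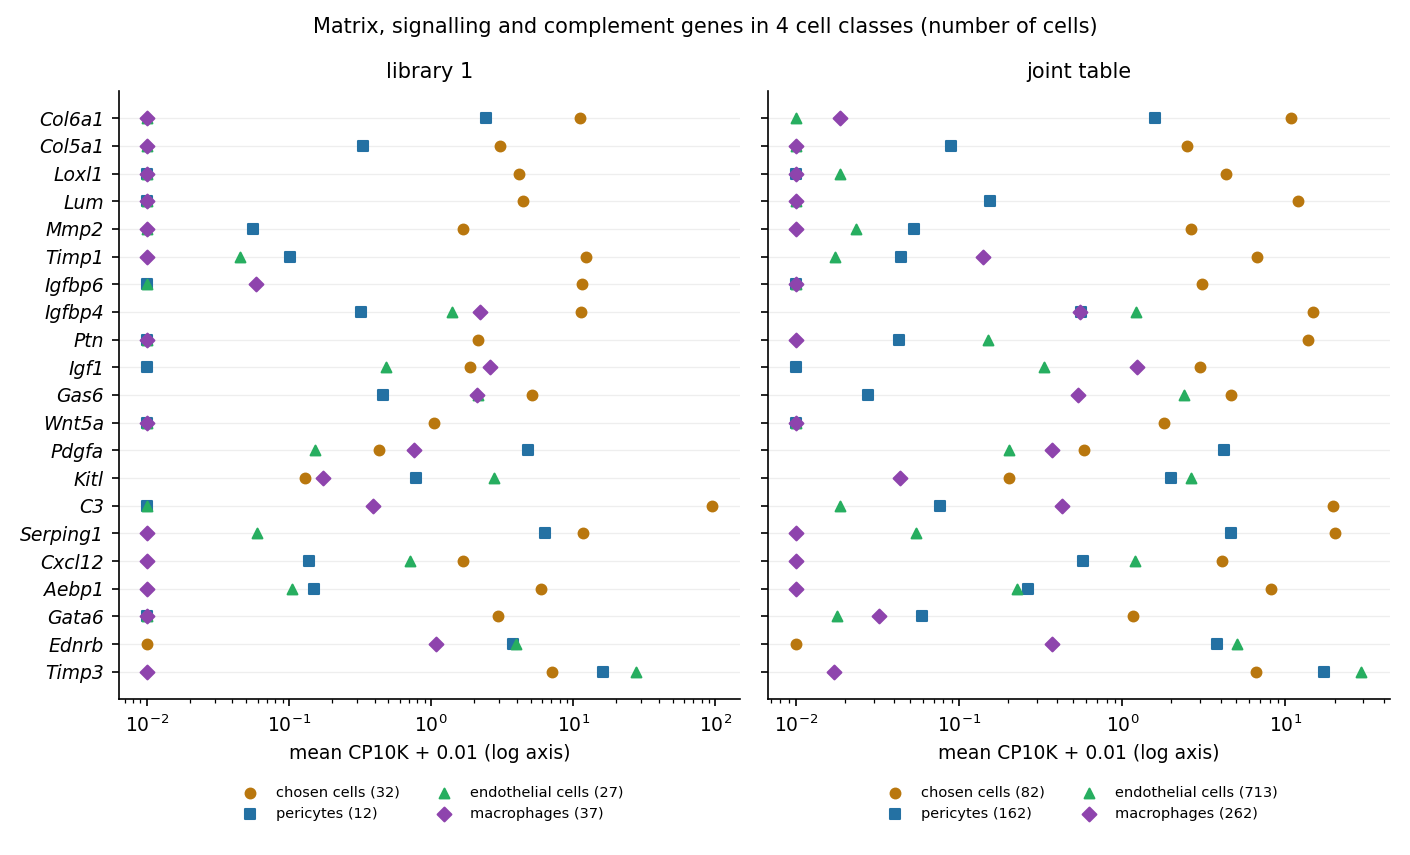
Mean CP10K plus 0.01 (horizontal log axis) of 21 matrix, signalling and complement genes in chosen cells, pericytes, endothelial cells and macrophages of library 1 and the joint table. Lum is at 0.145 CP10K or less outside the chosen cells, whereas Pdgfa is highest in pericytes (4.82 and 4.22 CP10K), Kitl in endothelial cells (2.77 and 2.61) and Ednrb at 0 in chosen cells.

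Genes of the lineage mark were examined because the series asks about Neurog3. Neurog3 was at 0 in all 114 chosen cells, where the limit for cells with a UMI is 9.38% of the 32 and 3.66% of the 82. This limits detection at these depths and not expression. It was also at 0 in the pericytes, endothelial cells and macrophages of both tables. The TdTomato row was at 0 in the 32 cells of library 1 and had 16 UMIs in 11 of 82 joint cells (13.4%). In the joint table it was seen in 21 of 162 pericytes (12.96%), 142 of 713 endothelial cells (19.9%) and 28 of 262 macrophages (10.7%), at median depths of 2818.5, 2117, 2877 and 3464.5 UMIs in the chosen cells, pericytes, endothelial cells and macrophages. The share in the chosen cells lay between those of the other classes, and no difference is read from it. In library 1 the row was at 0 in all 4 classes. Which sequence this row counts is not given in the sources used here.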

How the data were processed

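Single islet cells were profiled by 10x Genomics 3-prime sequencing in 3 samples of 1 group. The authors deposited UMI counts per cell for library 1. The second table, deposited for replicates 2 and 3 together, holds the natural log of 1 plus UMIs per 10000, from which whole UMI counts were recovered for 100% of 35558086 values within 0.001. Per the submitters' processing notes, Cell Ranger (3.2.0 and 5.0.0), cutadapt 2.5, FastQC 0.11.8, Seurat (4.0.0 for the joint table) and the mm10 build were used. No other step is given in the sources used here.

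Exact copies of 3008 joint cells were dropped. Cells were kept with 500 genes or more, 1000 UMIs or more and no more than 20% of UMIs from mitochondrial genes. Library 1 totalled 27474046 UMIs, and 196833349 UMIs came from the joint table. The members, gene lists and tests were chosen with earlier results of these data known. A doublet caller (Scrublet) removed 0 of the chosen cells, and no doublets were removed in the main results. Pericytes, endothelial cells and macrophages passed sets of marker genes.

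Per class and table, mean CP10K over cells was taken as log2 with 0.05 added, each column was centred on its median, and limma 3.58.1 (R 4.3.3) was fitted to all classes with the table as a term, with Benjamini-Hochberg adjustment at 0.05. Genes needed 0.1 CP10K in 2 columns. Since nothing says that cells of the pooled mice are separate samples, p-values rest on 2 tables. They measure how far class differences disagreed between the tables, with the spread pooled over all classes and moderated across genes. A lower bound against a class at 0 set the mean CP10K of the other class over 3 counts per table, and the limit for a share of 0 is 3 over the number of cells. Other share intervals are exact Clopper-Pearson 95% intervals. Named genes were the 12 largest called differences in each direction with at least 0.5 CP10K in the higher class and 1 direction in both tables and all blocks, the 25 highest genes of the joint chosen cells, and list members at 0.5 CP10K or more. Others were named after their values were seen. edgeR 4.0.16 and DESeq2 1.42.0 on summed counts were alternatives. The fit was tested on simulated data. Some results are not reported here.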

Additional observations from a re-analysis of the deposited data

How the results depend on the processing

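With 2 tables, leaving one out left no residual degrees of freedom, so only values by table are given. No paired analysis was possible because no 2 groups of samples share replicate numbers. Classes were compared within tables, and without the table term 393 genes were higher and 278 lower against pericytes. The cells with neither mesothelial nor pericyte genes were too few in library 1 (2 cells) for a fit. Depth limits the joint table most, where a median of 2818.5 UMIs per chosen cell leaves rare genes unseen. Centring shifted all genes: without it, the median log2 difference was 0.25 against macrophages and -0.13 against endothelial cells.

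Against pericytes 202 genes were lower with a pseudocount of 0.01 and 600 without the filter on low values, which moved the share higher among called genes from 58.5% to 36.0%. Against macrophages, no centring gave 987 higher and 617 lower genes. On summed counts, edgeR with TMM called 1362 higher and 1091 lower against endothelial cells and 1516 and 1168 against macrophages. With DESeq2 size factors edgeR called 1359 and 1105, and 1427 and 1236. DESeq2 called 1117 and 908 against endothelial cells. Fn1 against macrophages, not called in limma, turned to 0.15, 0.10 and 0.0941 in these 3 fits. Saa3 against macrophages turned to -0.68 in joint cells without mesothelial genes. The causes were not tested.

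The chosen share of the joint table was 0.569% with at least 2000 UMIs, 0.428% with insulin under 1000 CP10K and 0.507% without cells that passed another class's markers, where library 1 had 0.233%. In that last set the adventitial, parenchymal and mesothelial shares were 0%, 0% and 0% in library 1 and 1.72%, 44.8% and 0% in the joint table, the mesothelial ones by construction. Thinned to 2000 UMIs, library 1 had 21.9%, 0% and 53.1%, and the joint mesothelial share was 4.84%. Of 140 named gene results, 32 lost their call with DESeq2 and 11 with a pseudocount of 0.01.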
